A study of Homo sapiens with 8 samples.

Results

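The direct comparison of forskolin with a CBP inhibitor in NCI-H295R cells, an established line from a human adrenocortical carcinoma, rests on 2 deposited ATAC-seq peak lists. In ATAC-seq the transposase Tn5 cuts accessible DNA and tags it with sequencing adapters, and a peak is a stretch of open chromatin where such insertions pile up. The forskolin (FSK) list holds 51095 peaks and the CBP inhibitor (CBPi) list 47161, together 98256 of the 200358 peaks in the 4 lists of the series. FSK cells had vehicle for 48 h and then 10 µM forskolin for 48 h. CBPi cells had 26 µM PRI-724, a dose the labels call the IC-50, for 96 h. The other groups, used only to describe peaks already chosen, had 62 µM of the EZH2 inhibitor EPZ-6438 (EZH2i) or DMSO (vehicle) for 96 h. Each group has 2 libraries, labelled biological replicates, and 1 list. A peak was called private when no base of it was covered by the other list, and the vehicle list chose no peak. Under this rule 12848 FSK peaks and 9547 CBPi peaks were private. Agent, dose and exposure time all differ between the groups and cannot be told apart.

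Forskolin activates adenylyl cyclase, which makes cAMP from ATP. Cyclic AMP frees the catalytic subunits of protein kinase A, and these phosphorylate transcription factors such as CREB. In the adrenal cortex the pituitary hormone ACTH uses the same route through its receptor MC2R to drive steroid synthesis and the genes that serve it. CBP is a histone acetyltransferase and coactivator that both phosphorylated CREB and β-catenin recruit, and PRI-724 is described as an agent that blocks the contact of CBP with β-catenin. β-Catenin pairs with TCF/LEF proteins to switch on Wnt target genes, and the line is known for constantly active β-catenin signalling.

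Among the 293 genes of the gene lists read below that had a promoter window, 16 had it under a peak of only 1 of the lists. Of these, 5 were in FSK and 11 in CBPi. Of all 15812 promoter windows, 139 (0.879%) were under an FSK peak only and 430 (2.72%) under a CBPi peak only. The promoters of 4 of the 16 genes that results below return to are printed here, and they do not stand for all 16. Among those not printed are ATF4 and CSF1R, under an FSK peak only, and DVL1 and FLT1, under a CBPi peak only. DVL1 and FLT1 hold TGACGTCA, the full cAMP response element. MC2R, CYP21A2 and INHA lay under an FSK peak only, and SP5 under a CBPi peak only. Each is the 300-base RefSeq window of GRCh38.p14, 250 bases before the gene's start to 50 after, 5′ to 3′ on the gene's strand. Capitals mark matches on either strand. The letters searched were TGACG, the core of the cAMP response element or CRE. For AP-1, the dimer of FOS and JUN proteins, they were TGANTCA. For the TCF/LEF partners of β-catenin they were CTTTGAA. The GATA family of transcription factors was searched for as GATAAG and the NR4A family of nuclear receptors as AAAGGTCA. A match is a string of letters, not a bound site.
MC2R, chr18:13915658-13915957, minus strand: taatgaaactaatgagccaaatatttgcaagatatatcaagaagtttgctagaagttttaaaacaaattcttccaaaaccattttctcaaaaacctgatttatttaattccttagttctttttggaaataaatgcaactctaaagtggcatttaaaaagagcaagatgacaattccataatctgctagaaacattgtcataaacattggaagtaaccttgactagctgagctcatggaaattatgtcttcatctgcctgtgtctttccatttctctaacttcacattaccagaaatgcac
CYP21A2, chr6:32038165-32038464, plus strand: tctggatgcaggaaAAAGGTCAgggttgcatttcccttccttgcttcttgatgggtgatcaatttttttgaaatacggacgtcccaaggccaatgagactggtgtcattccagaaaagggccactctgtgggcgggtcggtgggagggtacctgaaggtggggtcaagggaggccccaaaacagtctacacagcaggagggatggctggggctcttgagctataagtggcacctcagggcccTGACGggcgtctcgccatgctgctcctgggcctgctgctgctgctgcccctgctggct
INHA, chr2:219572060-219572359, plus strand: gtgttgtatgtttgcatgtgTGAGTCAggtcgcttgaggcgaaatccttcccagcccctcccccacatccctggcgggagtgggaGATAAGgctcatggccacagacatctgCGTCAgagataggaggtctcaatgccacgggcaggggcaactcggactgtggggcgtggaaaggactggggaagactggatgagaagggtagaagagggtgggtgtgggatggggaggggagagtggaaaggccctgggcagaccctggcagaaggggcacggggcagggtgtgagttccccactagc
SP5, chr2:170715087-170715386, plus strand: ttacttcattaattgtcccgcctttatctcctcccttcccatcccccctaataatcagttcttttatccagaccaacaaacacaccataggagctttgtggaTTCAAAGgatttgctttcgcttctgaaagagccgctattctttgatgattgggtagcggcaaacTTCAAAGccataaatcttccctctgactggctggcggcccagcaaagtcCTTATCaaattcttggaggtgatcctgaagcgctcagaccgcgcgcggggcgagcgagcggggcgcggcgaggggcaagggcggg

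Most open regions were common to both lists, and the private peaks were mostly small. Private peaks made up 25.1% of the FSK list and 20.2% of the CBPi list (Wilson 95% intervals 24.8 to 25.5% and 19.9 to 20.6%). The intervals take each peak as an independent count, so they hold counting error alone. With 1 list a group no replicate error can be given, so no p-value was computed for any comparison. The order of the 2 shares turned round when the lists had equal length, but this order says nothing about the treatments. Shared peaks numbered 38247 in FSK and 37614 in CBPi, so the private count of each list mostly follows its length. Lists of equal length must then leave near-equal private counts. With the 3934 FSK peaks of smallest area taken out, 10422 FSK peaks (22.1%) and 10908 CBPi peaks (23.1%) were private. Among the 20000 peaks of largest area in each list, 3535 FSK peaks and 3635 CBPi peaks had no partner. Against the whole other list, these same 20000 left only 584 FSK and 364 CBPi peaks without a partner. The lists covered 35.7 Mb in FSK and 36.7 Mb in CBPi, and the 27.9 Mb they shared was 78.0% of the FSK bases and 76.1% of the CBPi bases.

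Area is the authors' signal, the area of significance under a peak, and it was used only to rank peaks within a list because depth is unknown. From the smallest to the largest decile of area, the private share ran from 60.5% to 0.0783% in FSK and from 55.5% to 0% in CBPi. In the largest decile 4 of 5110 FSK peaks and 0 of 4717 CBPi peaks were private, and that 0 leaves an upper Wilson limit of 0.0814%. The larger 50% of each list held 1523 private FSK peaks (5.96%) and 767 private CBPi peaks (3.25%). Private peaks had a median width of 349 bp in FSK and 393 bp in CBPi, against 636 and 693 bp for shared peaks. The nearest peak of the other list lay a median 24133 bp from a private FSK peak and 11022 bp from a private CBPi peak. Within 1 kb of a private peak the other list had a peak in 6.33% of FSK cases and 12% of CBPi cases.

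**Figure D1:**
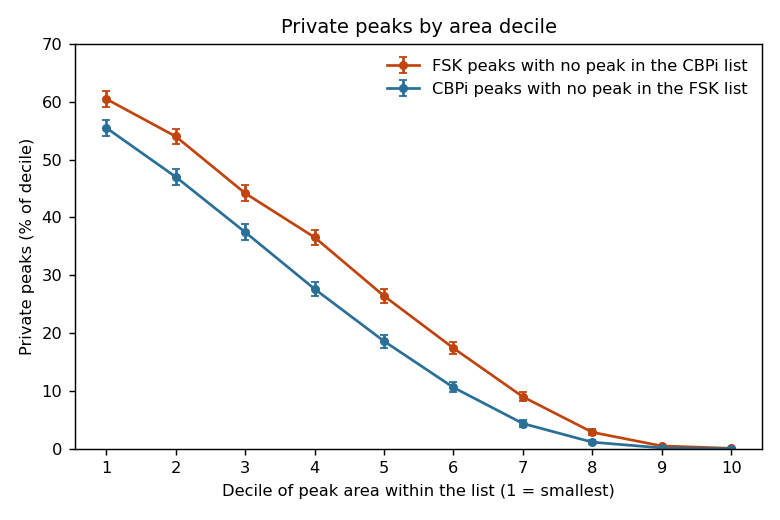
Private peaks as a percentage of each area decile of the FSK list (orange) and the CBPi list (blue) from the smallest to the largest; bars are Wilson 95% intervals. The share runs from 60.5% to 0.0783% in FSK and from 55.5% to 0% in CBPi, with FSK above CBPi in every decile.

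Position differed between the private sets. Peaks with a summit within 1 kb of either end of a protein-coding gene, here gene-end peaks, were private in 331 of 12020 cases in FSK (2.75%) and in 879 of 12291 in CBPi (7.15%). Peaks inside gene bodies were private in 27.9% of cases in FSK and 26.1% in CBPi. Intergenic peaks were private in 35.9% of cases in FSK and 23.6% in CBPi. The median distance to a gene end was 69.3 kb for private FSK peaks and 21.3 kb for private CBPi peaks, while shared peaks lay at 10.1 kb in the FSK list and 10.4 kb in the CBPi list. Distal peaks (all but gene-end) exceeded gene-end peaks in private share by 29.3 points in FSK and 17.7 points in CBPi. Averaged over area deciles, so that the larger size of gene-end peaks does not enter, the excess was 19.0 points in FSK and -3.68 points in CBPi.

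Gene density ordered the distal private peaks in opposite directions. The genome was divided into 598 windows of 5 Mb, sorted into quintiles by their number of protein-coding genes, which ran from 0 to 13 genes in the poorest quintile to 47 to 201 in the richest. From the poorest to the richest quintile, distal FSK peaks were private in 48.7, 39.3, 32.2, 26.1 and 18.2% of cases. Distal CBPi peaks were private in 14.6, 19.5, 24.1, 26.9 and 30.9% of cases along the same quintiles. In neither list did the Wilson intervals of neighbouring quintiles overlap. The slopes of the lists are not independent, because both rest on the same overlaps and on the relative number of peaks. Distal peaks numbered 6462 in FSK and 3845 in CBPi in the poorest quintile, and 8830 and 10251 in the richest. The opposite slopes were seen within 21 of 21 chromosomes with at least 30 distal peaks on both sides. They also stood after averaging over area deciles, at 40.7 and 15.5% in the poorest and richest quintiles for FSK and 11.2 and 26.6% for CBPi. GC content and copy number were not measured, and their part in this pattern was not tested.

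**Figure D2:**
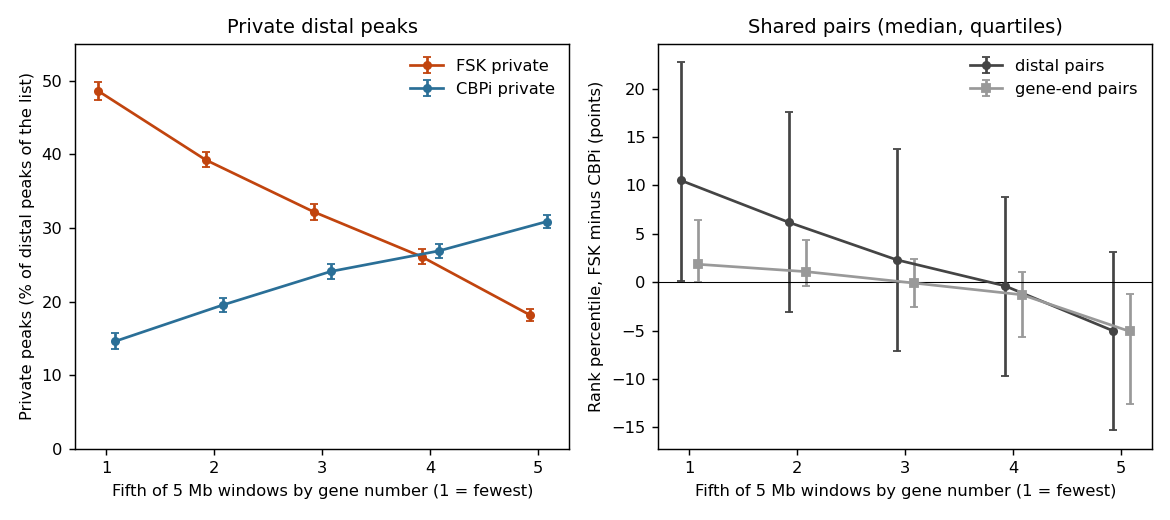
Left, private distal peaks as a percentage of the distal peaks of each list by quintile of protein-coding genes in 5 Mb windows, with Wilson 95% intervals. Right, difference in area rank percentile, FSK minus CBPi, of shared pairs in the same quintiles (median and quartiles). The FSK share goes from 48.7% to 18.2% and the CBPi share from 14.6% to 30.9%, and the median difference of distal pairs goes from 10.5 to -5.01 points.

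Most private peaks of both lists overlapped a vehicle peak, so a private peak of 1 treatment was often a vehicle peak that the other list lacked. The share in the vehicle list was 52.8% of private FSK peaks and 67.7% of private CBPi peaks, against 94.7% of the shared peaks of either list. The EZH2i list covered 18.7% of private FSK peaks and 36.3% of private CBPi peaks. It was the shorter list, with 41086 peaks over 31.5 Mb against 61016 over 42.7 Mb in vehicle. Coverage by the vehicle and EZH2i lists is therefore not directly comparable. Neither further list covered 5570 FSK peaks (43.4%) and 2608 CBPi peaks (27.3%). Among private peaks in the larger 50% of their list, 66.4% of FSK peaks and 92.0% of CBPi peaks were in the vehicle list. The gene-density slope appeared in both portions. As a share of distal FSK peaks, private peaks that vehicle also had made up 29.1% in the poorest quintile and 7.02% in the richest, and those that vehicle lacked 19.6 and 11.2%. As a share of distal CBPi peaks, the corresponding values were 11.4 and 18.7% with a vehicle peak and 3.15 and 12.2% without.

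Private FSK peaks were packed most densely on chromosome 7 between 45 and 55 Mb, a region that holds COBL, GRB10 and IKZF1. There 504 of 1019 FSK peaks were private (49.5%), against 24.6% elsewhere. Of the CBPi peaks in the same 10 Mb, 66 of 566 were private (11.7%), against 20.4% elsewhere. In the 5 Mb from 50 Mb the counts were 275 of 489 in FSK and 15 of 227 in CBPi. The block is gene-poor, with 18 genes from 45 to 50 Mb and 9 from 50 to 55 Mb. Its windows had 43.2 and 56.2% of FSK peaks private. In the quintiles of gene density they belong to, distal FSK peaks were private in 39.3 and 48.7% of cases genome-wide. The FSK share of the block was thus nearer to that of other gene-poor regions than to the value elsewhere. On chromosome 12 between 20 and 25 Mb 60.8% of 166 FSK peaks and 4 of 69 CBPi peaks were private. The reverse was seen in other windows. On chromosome 17 between 40 and 45 Mb 4 of 149 FSK peaks and 64 of 204 CBPi peaks were private, and on chromosome 6 between 25 and 30 Mb 1 of 152 and 64 of 210.

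Both lists shared 35822 peaks as 1-to-1 pairs, 70.1% of the FSK list and 76.0% of the CBPi list. Each member was given its area rank percentile among these pairs, from 0 for the smallest. Across pairs, which are not independent and come from 1 list each, Spearman's rho of area was 0.829 and Pearson's r of log2 area 0.863. The median rank difference, FSK minus CBPi, was -0.41 points, with quartiles at -8.55 and 7.94. Summits lay a median 20 bp apart. Of the 3583 pairs in the top decile of FSK, 3040 (84.8%) were also in the top decile of CBPi. In 3886 pairs (10.8%) the FSK rank was over 20 points higher, and in 3605 pairs (10.1%) the CBPi rank was.

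**Figure D3:**
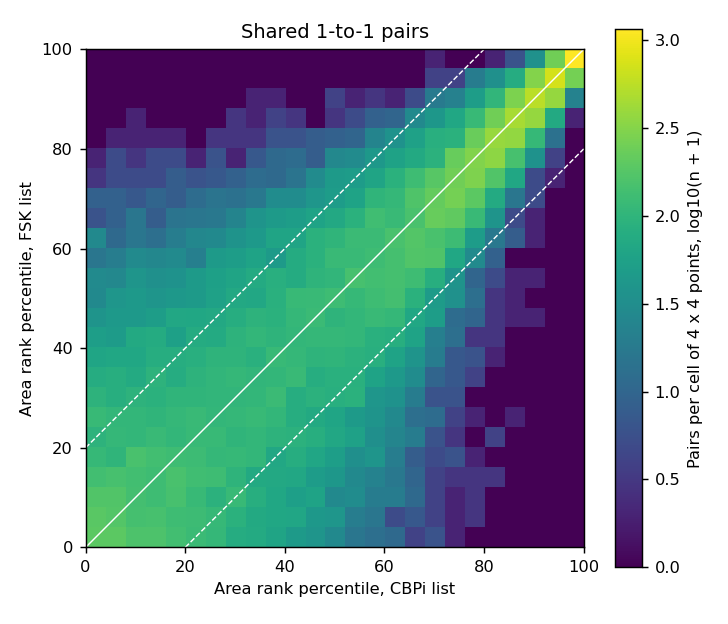
Area rank percentile of 35822 shared pairs in the FSK list (vertical) and the CBPi list (horizontal); colour is log10 of the number of pairs plus 1 in squares of 4 points. The solid line marks equal ranks and the dashed lines a difference of 20 points; 3886 pairs lie above the upper dashed line and 3605 below the lower.

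Among shared pairs, rank differences over 20 points were distributed differently at gene ends and at intergenic sites. At gene ends 156 of 10655 pairs ranked over 20 points higher in FSK (1.46%) and 899 in CBPi (8.44%). At intergenic sites 17.9% ranked over 20 points higher in FSK and 10.1% in CBPi. Gene-end peaks were the larger, and wide gaps were rare among pairs of high rank. The classes were not matched on rank, and the part of peak size in this difference was not tested. For distal pairs the median difference was 10.5, 6.19, 2.31, -0.37 and -5.01 points from the poorest to the richest quintile of gene density. For gene-end pairs it was 1.85, 1.09, -0.09, -1.30 and -5.09 points along the same quintiles, so both classes ran in the same direction with gene density. The richest quintile held 4902 of the 10655 gene-end pairs and 6727 of the 25167 distal pairs. The order along the quintiles is the same as that of the private FSK peaks. Pairs and private peaks come from the same 2 lists, so the 2 orders are not independent. Of 1830 pairs absent from the vehicle list, 20.5% ranked over 20 points higher in FSK and 9.40% in CBPi. Of pairs present in vehicle, 10.3% ranked over 20 points higher in FSK and 10.1% in CBPi.

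To read the lists by pathway, each peak was assigned to a protein-coding gene, the one whose end lay nearest to the summit and no more than 100 kb away. Of the assigned peaks, 18.7% of FSK peaks and 20.2% of CBPi peaks were private. An expected number of private peaks was taken from the same list, from peaks of the same area decile, density quintile and position class (gene-end or distal). Of the 16007 genes with a peak, 3243 (20.3%) had more private peaks in FSK and 4261 (26.6%) more in CBPi. In all 412 genes of 17 lists were read this way. Counts of single genes are small, and some of those named below lay near their expected numbers.

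**Figure D4:**
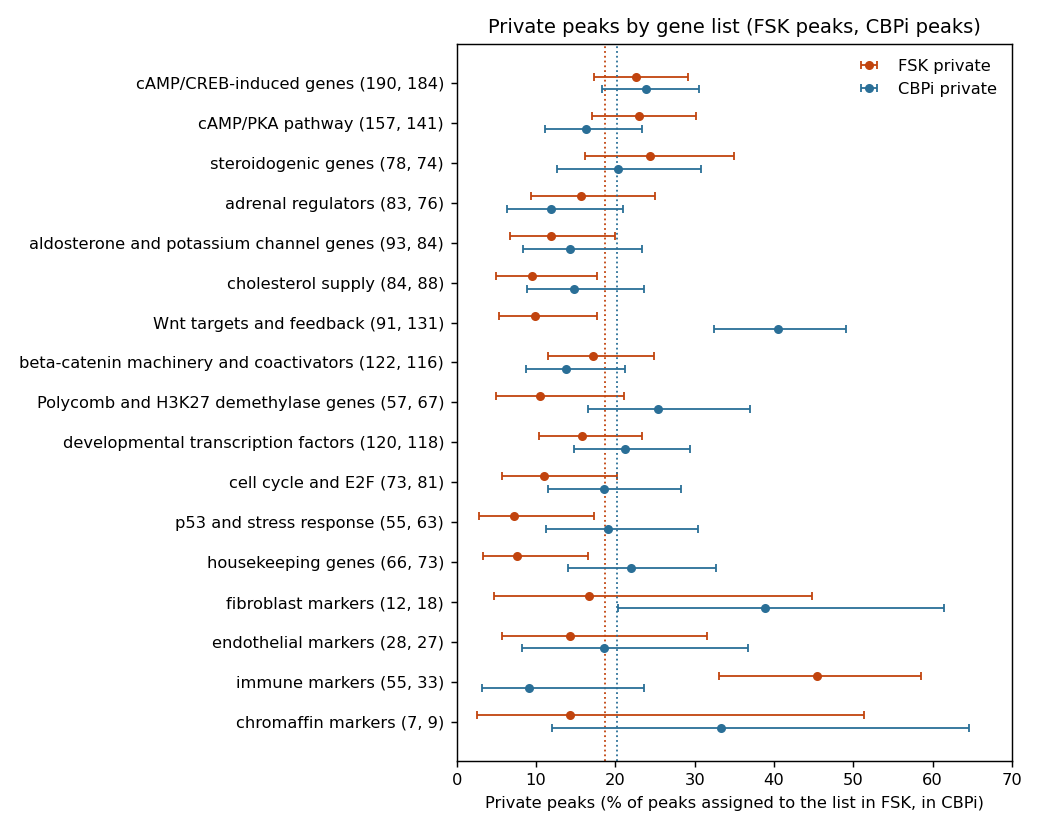
Private peaks as a percentage of the peaks assigned to each of 17 gene lists in FSK (orange) and CBPi (blue), with Wilson 95% intervals; dotted lines are the values over all assigned peaks, and brackets give the number of FSK and CBPi peaks. The Wnt target list stands at 9.89% in FSK and 40.5% in CBPi, and the immune list at 45.5% in FSK and 9.09% in CBPi.

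The Wnt targets and feedback genes, which β-catenin switches on and several of which damp the pathway again, differed most between the lists among the pathway lists. Of their assigned peaks, 9 of 91 were private in FSK (9.89%, 5.29 to 17.7%) and 53 of 131 in CBPi (40.5%, 32.4 to 49.0%). The numbers expected were 19.98 in FSK and 29.31 in CBPi. Low FSK shares were not particular to the Wnt list. They were 7.58% for housekeeping, 7.27% for p53 and stress and 9.52% for cholesterol supply genes, with 21.9, 19.0 and 14.8% in CBPi. More private peaks in FSK were found at 2 of the 26 Wnt genes and more in CBPi at 20. Over all 16007 genes with a peak, the corresponding shares were 20.3% and 26.6%. The gene lists were chosen with earlier results of these data known, so the Wnt list was not a blind choice. The vehicle list held 1 of the 9 private FSK peaks and 42 of the 53 private CBPi peaks. Without TBX3 and ZNRF3, the genes with the most private peaks, 8 of 77 and 39 of 105 peaks were private. The 75 shared pairs of the list had a median rank difference of -2.44 points, with 5 pairs over 20 points higher in FSK and 15 in CBPi.

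ZNRF3, a ubiquitin ligase that removes Wnt receptors from the cell surface, had 0 of 5 peaks private in FSK and 6 of 11 in CBPi, all 6 in the vehicle list. The largest lay inside the gene at chr22:28989539-28990160, and 34.6% of CBPi peaks were larger. ZNRF3 pairs ranked at 21.4 in FSK and 62.8 in CBPi at the most divergent site. TBX3, a developmental transcription factor, had 1 of 9 peaks private in FSK and 8 of 15 in CBPi. The TBX3 pair with the widest gap had rank 9.92 in FSK and 66.0 in CBPi, 8.74 kb from the gene.

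SP5, a transcription factor gene that Wnt signalling induces, had no FSK peak assigned and 2 CBPi peaks, both private and both in the vehicle list. The CBPi peak at chr2:170715126-170715803 covers most of the promoter printed above, with its 2 CTTTGAA matches and 1 GATAAG match. CCND1, which encodes cyclin D1, had 0 of 1 peak private in FSK and 2 of 3 in CBPi, and the CBPi peak at chr11:69641013-69641529 lay at its start. BMP4, a secreted growth factor gene, had 0 of 1 and 2 of 2 peaks private, and CD44, a cell-surface adhesion receptor gene, had no FSK peak and 1 private CBPi peak. At the gene ends of SP5, CCND1, BMP4 and CD44 the CBPi list had a peak and the FSK list had none. Chosen after their values were seen, NKD1 and AXIN2, both feedback inhibitors of the pathway, had 0 of 7 and 1 of 4 peaks private in FSK and 5 of 12 and 4 of 7 in CBPi. MYC went the other way, with 3 of 14 private in FSK and 1 of 12 in CBPi.

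**Figure D5:**
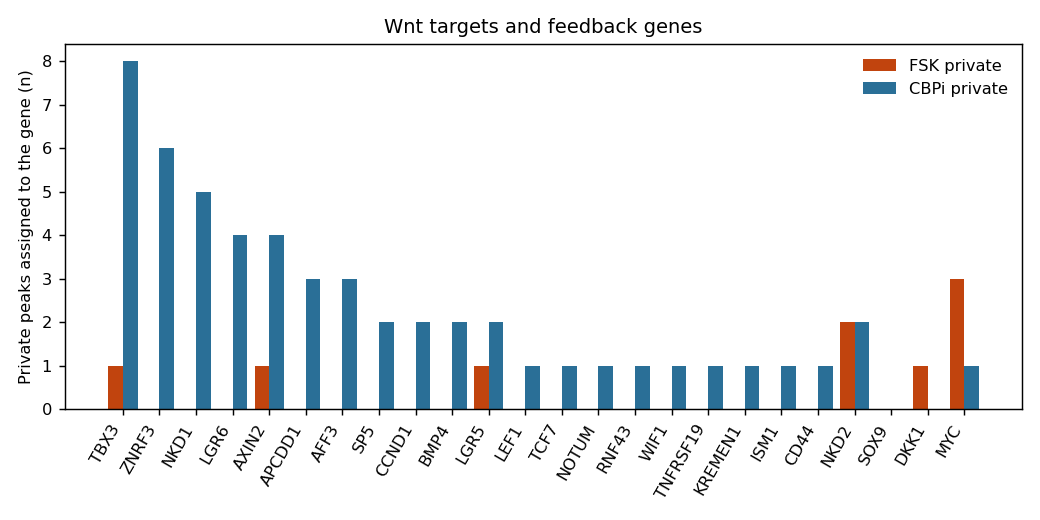
Number of private peaks assigned to each of 24 Wnt target and feedback genes with a peak, in FSK (orange) and CBPi (blue). TBX3 has 1 in FSK and 8 in CBPi and ZNRF3 0 and 6, while MYC has 3 and 1.

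The proteins that carry the Wnt signal gave no such gap. The β-catenin machinery and coactivators had 21 of 122 peaks private in FSK (17.2%) and 16 of 116 in CBPi (13.8%). Both intervals included the value over all assigned peaks. The order of the shares turned round at equal list length (17 of 114 in FSK and 20 of 116 in CBPi), within 25 kb (5 of 76 and 9 of 78) and over the gene bodies (9 of 81 and 10 of 81). TCF7L2, a DNA-binding partner of β-catenin, had 4 of 11 peaks private in FSK, none of them in vehicle, and 0 of 7 in CBPi. TLE4, a Groucho-type corepressor of TCF proteins, had 6 of 13 private in FSK and 1 of 8 in CBPi. Expected numbers in FSK and CBPi were 3.36 and 1.15 for TCF7L2 and 6.08 and 1.44 for TLE4, so the FSK counts of both lay near them. DVL1, which relays the signal from the receptor, had a gene-end peak in CBPi only.

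At cAMP-responsive genes the intervals of both lists included the values over all assigned peaks. The cAMP/CREB-induced genes had 43 of 190 peaks private in FSK (22.6%, 17.3 to 29.1%) and 44 of 184 in CBPi (23.9%, 18.3 to 30.6%), and 13 genes had more in each. PDE4B and PDE4D encode phosphodiesterases that break down cAMP, and they differed in direction. PDE4B had 7 of 10 peaks private in FSK and 2 of 5 in CBPi, with shared pairs at a median difference of 20.3 points. PDE4D had 2 of 5 private in FSK and 5 of 8 in CBPi, with a median of -22.7 points. DUSP5, a phosphatase of ERK, had 4 of 11 private in FSK and 1 of 8 in CBPi. Its pair 1.33 kb from the gene had rank 89.4 in FSK and 49.1 in CBPi. RGS2, which dampens G-protein signalling, had 3 of 6 private in FSK and 1 of 4 in CBPi. CREB5, of the CREB family, had 0 of 2 private in FSK and 3 of 5 in CBPi, and its gene-end peak was in CBPi only.

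The pathway that makes and reads cAMP had 36 of 157 peaks private in FSK (22.9%) and 23 of 141 in CBPi (16.3%), against 45.5 and 26.5 expected. ADCY1, an adenylyl cyclase gene in the dense block of chromosome 7, was chosen after its values were seen and held 18 of the 36 private FSK peaks and 8 of the 23 private CBPi peaks. Without that block the list had 18 of 105 peaks private in FSK and 15 of 102 in CBPi, a difference of 2.44 points against 6.62 with it. MC2R, the ACTH receptor gene, had 3 peaks in FSK, all private, and none assigned in CBPi. The largest, chr18:13915373-13915807, reaches into the MC2R promoter printed above, which held none of the letters searched. Vehicle had this peak too, and 56.4% of FSK peaks were larger. ADCY7, an adenylyl cyclase gene, had 2 of 3 peaks private in FSK and 0 of 1 in CBPi, with a gene-end peak in FSK only. ADCY4, another cyclase gene, had a gene-end peak in FSK and none in CBPi, but 0 of 1 assigned peaks was private in FSK and 1 of 2 in CBPi. Its shared pair had rank 17.1 in FSK and 30.0 in CBPi. GNAS, the stimulatory G-protein subunit that activates cyclase, and PRKAR1A, the regulatory subunit that holds protein kinase A inactive, had gene-end peaks in CBPi and vehicle and none in FSK. The CBPi peaks lay at chr20:58839454-58840264, 0.094 kb from an outer end of GNAS, and at chr17:68413561-68414219, 0.51 kb from an outer end of PRKAR1A. Starts inside these genes were not read as gene ends, so other promoters of these genes are not covered. The RefSeq promoter window of GNAS was elsewhere, at chr20:58888163-58888462. A CBPi peak reached into that window and also overlapped an FSK peak outside it.

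Steroidogenic genes, which turn cholesterol into steroid hormones, had 19 of 78 peaks private in FSK (24.4%, 16.2 to 34.9%) and 15 of 74 in CBPi (20.3%, 12.7 to 30.8%). With lists of equal length the counts were 16 of 73 in FSK and 17 of 74 in CBPi, so the order of the shares turned round. It also turned for peaks over the gene bodies, with 9 of 47 in FSK and 10 of 48 in CBPi. CYP21A2, the 21-hydroxylase, had 3 of 4 peaks private in FSK and 0 of 1 in CBPi. Its shared pair had rank 54.8 in FSK and 24.5 in CBPi. The 2 largest private peaks of CYP21A2 were at chr6:32045938-32047479 and over the start at chr6:32038061-32038509, and vehicle had neither. That second peak covers the CYP21A2 promoter printed above, with its AAAGGTCA and TGACG matches. CYP21A2 has a near-identical pseudogene close by, so placement of its reads is uncertain. SCARB1, the receptor that takes up HDL cholesterol, had 9 of 20 private in FSK and 5 of 16 in CBPi. CYP11A1, which makes pregnenolone from cholesterol, had 3 of 8 private in FSK, none in vehicle, and 2 of 8 in CBPi, both in vehicle. HSD11B2, which inactivates cortisol, had a gene-end peak in FSK and vehicle and none in CBPi. CYP11B2, the aldosterone synthase, had 0 of 2 and 2 of 4 peaks private. It shares high sequence identity with its neighbour CYP11B1.

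Adrenal regulators had 13 of 83 peaks private in FSK and 9 of 76 in CBPi. The order of the shares turned round at equal list length, with 11 of 76 in FSK and 14 of 76 in CBPi, and for peaks over the gene bodies, with 9 of 65 and 11 of 64. NR2F1, a nuclear receptor gene, had 3 of 6 private in FSK and 0 of 3 in CBPi, and CDKN1C, a cell cycle inhibitor gene, had a gene-end peak in CBPi and vehicle and none in FSK. NR5A1, the gene of steroidogenic factor SF1, was chosen after its values were seen and had 2 of 5 private in FSK and 0 of 3 in CBPi. Aldosterone and potassium channel genes had 11 of 93 private in FSK and 12 of 84 in CBPi. CACNA1H, a calcium channel gene, had a gene-end peak in CBPi and vehicle and none in FSK.

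Polycomb and H3K27 demethylase genes write, read or erase the repressive mark on histone H3 lysine 27. Of their peaks, 6 of 57 were private in FSK (10.5%, 4.91 to 21.1%) and 17 of 67 in CBPi (25.4%, 16.5 to 36.9%). The number expected was 10.4 in FSK and 11.1 in CBPi. Both intervals included the value over all assigned peaks. The difference, FSK minus CBPi, was -14.85 points, against -14.34 for the housekeeping genes. JARID2, a cofactor of the Polycomb complex PRC2, had 0 of 7 private in FSK and 5 of 12 in CBPi, all 5 in vehicle. AEBP2, another PRC2 cofactor, had 6 of 16 private in FSK and 1 of 11 in CBPi. PHF19, also a cofactor, had 0 of 3 and 3 of 6, none of them in vehicle. Expected numbers in FSK and CBPi were 1.89 and 1.28 for JARID2, 5.34 and 1.97 for AEBP2, and 0.127 and 2.76 for PHF19. Developmental transcription factors had 19 of 120 private in FSK and 25 of 118 in CBPi. HOXB2, EVX1 and GSC, homeobox genes, had a gene-end peak in CBPi and none in FSK, and HOXB2 had no FSK peak assigned and 2 private CBPi peaks, both in vehicle.

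The identity of the cells was checked against markers. Of 9 adrenocortical marker genes, 8 had a gene-end peak in FSK and 6 in CBPi. HSD3B2 had none in FSK, CBPi or vehicle, and CYP21A2 and MC2R none in CBPi. Of all 19974 protein-coding genes, 13029 had a gene-end peak in FSK and 13449 in CBPi. The CBPi share of the adrenocortical markers was thus near that of all genes and by itself says nothing of identity. Of 10 fibroblast markers 4 had a gene-end peak in FSK and 3 in CBPi, of 10 endothelial markers 2 and 3, of 10 immune markers 3 and 4, and of 10 chromaffin markers 4 and 4. COL1A2, COL3A1, PECAM1, VWF, PTPRC, CD14, TH and PNMT had none in either list. In both lists a gene-end peak was found for the fibroblast markers COL1A1, FAP and PDGFRA and the endothelial markers KDR and ENG. The same held for the immune markers IKZF1 and SPI1 and the chromaffin markers CHGA, CHGB, DBH and SYP. The immune list had 25 of 55 peaks private in FSK and 3 of 33 in CBPi, but 22 of the 25 were assigned to IKZF1 in the dense block of chromosome 7. Without IKZF1, 3 of 10 FSK peaks and 2 of 8 CBPi peaks were private. The fibroblast list had 2 of 12 peaks private in FSK and 7 of 18 in CBPi, the endothelial list 4 of 28 and 5 of 27, and the chromaffin list 1 of 7 and 3 of 9.

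The genes with the largest excess of private FSK peaks all lay in that block. COBL, an actin nucleator gene, had 49 of 89 peaks private in FSK and 3 of 45 in CBPi. GRB10, an adaptor of insulin receptor signalling, had 38 of 73 and 6 of 40. IKZF1, a zinc-finger transcription factor gene, had 22 of 45 and 1 of 25. VWC2 had 17 of 26 and 0 of 10, PKD1L1 19 of 41 and 4 of 27, and SPMIP7 12 of 26 and 1 of 14. Expected numbers of private FSK peaks were 42.5 for COBL, 35.0 for GRB10, 21.8 for IKZF1, 9.48 for VWC2, 18.1 for PKD1L1 and 10.3 for SPMIP7. The count for VWC2 stood furthest above its expected number in proportion. Within 25 kb of the gene ends the difference, FSK minus CBPi, was 12 for COBL and for GRB10, against 46 and 32 within 100 kb.

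The genes with the largest excess in CBPi, counted as private peaks in CBPi over those in FSK, were spread over chromosomes. FMN1, a formin, had 0 of 6 peaks private in FSK and 8 of 14 in CBPi, MERTK, a receptor tyrosine kinase, 0 of 5 and 7 of 12, and MBNL2, a splicing regulator, 0 of 8 and 7 of 15. Together with TBX3 and ZNRF3 above, these had most of their private CBPi peaks in vehicle. Expected numbers of private CBPi peaks were 4.56 for FMN1, 3.05 for MERTK, 3.59 for MBNL2, 4.87 for TBX3 and 1.43 for ZNRF3. RASA3, a Ras GTPase-activating protein gene, had 4 of 55 in FSK and 13 of 62 in CBPi, of which vehicle held 3. For RASA3 12.6 were expected in FSK and 14.2 in CBPi, so its CBPi count was not above the expected number and its FSK count was below. Its difference changed sign within 25 kb of the gene ends.

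Named by area alone, the private peaks gave a different picture in each list. The largest private FSK peak, at chr12:29790459-29794477 and 7.79 kb from TMTC1, was 4019 bp wide, and 0.346% of FSK peaks were larger. The next, on chromosome 18 at chr18:39800738-39803418, had no gene end within 100 kb, and a CBPi peak lay 303 bp from it. The private FSK peak inside LRRC27 at chr10:132363210-132365713 was the only FSK peak of the largest 8 that vehicle lacked. The other 5 lay on chromosomes 1, 3, 4, 5 and 7. The largest private CBPi peak, at chr4:7757001-7758258, lay 1.03 kb from AFAP1, an actin-binding protein gene, and 16.5% of CBPi peaks were larger. The other CBPi peaks of the largest 8 lay nearest CUX2, RASA3, PRSS23, MRPL32, ASTN1 and ABR, or, on chromosome 7, over 100 kb from a gene. All 8 were in the vehicle and the EZH2i lists.

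Shared pairs with the widest rank gaps were also mostly distal. The widest in favour of FSK lay 82.8 kb from OSTF1 at chr9:75229647-75230975, with rank 86.0 in FSK and 8.12 in CBPi. A pair 52.5 kb from PTPRC, a leukocyte phosphatase gene, had rank 81.8 in FSK and 8.07 in CBPi. In favour of CBPi, the widest lay 22.3 kb from LMOD3 at chr3:69144771-69145193 in the FSK list, with rank 4.95 in FSK and 77.9 in CBPi. A pair inside ADAR, an RNA-editing enzyme gene, had ranks 6.33 in FSK and 76.7 in CBPi, and a pair 4.38 kb from ARHGEF2 12.7 and 78.0.

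Per gene, a peak base within 1 kb of a gene end was found for 13029 genes in FSK and 13449 in CBPi, 12827 of them the same. In FSK only there were 202 genes (1.01% of 19974) and in CBPi only 622 (3.11%). Vehicle had a gene-end peak at 102 of the 202 and at 451 of the 622. Among the 412 listed genes, 8 were in the first set and 19 in the second.

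RefSeq promoter windows, available for 15812 genes, gave the same order. Under an FSK peak only were 139 windows (0.879%) and under a CBPi peak only 430 (2.72%), while 9937 lay under peaks of both lists. Median GC content was 58.7% in the FSK-only windows and 61.7% in the CBPi-only windows, against 66.3% in those under both. The CRE letters TGACGTCA were in 1 of 139 FSK-only windows (0.719%) and in 20 of 430 CBPi-only windows (4.65%), against 2.59% of all windows. The AP-1 letters TGANTCA were in 20 FSK-only windows (14.4%, 9.51 to 21.2%) and in 24 CBPi-only windows (5.58%, 3.78 to 8.17%), against 5.75% of all windows. They were also in 9.33% of the 5306 windows under neither list (8.58 to 10.1%), an interval that overlaps that of the FSK-only windows, and in 3.73% of those under both. Median GC content of the windows under neither list was 52.7%. The TCF/LEF letters CTTTGAA were in 2.16% of FSK-only and 3.95% of CBPi-only windows, against 3.65% of all. For CTTTGATC these shares were 0, 0.233 and 0.449%, for the SF1 letters CAAGGTCA 0, 0.698 and 1.03%, and for AAAGGTCA 2.88, 0.930 and 0.987%. For GATAAG they were 5.75, 2.79 and 5.14%, and for TGACG, which TGACGTCA contains, 23.02, 27.44 and 29.41%. INHA, the inhibin α subunit gene and a known cAMP target, is an FSK-only window with AP-1, GATA and CRE core matches. Its FSK peak at chr2:219570564-219572447 overlapped a CBPi peak outside the window and was not private.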

How the data were processed

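Chromatin of 8 ATAC-seq libraries was analysed as 4 deposited peak lists, 1 for each group of 2 libraries. Per the submitters' processing notes the build was hg38, and Bowtie2, Genrich and deepTools 2.0 were used, without roles. The sources used here do not give filters, Tn5 shifts, thresholds or how libraries were combined. Each peak carries the authors' signal (area), the deposited −log10 of the summit p and the deposited score, which matched the ratio of area to width times 1000 (highest value 1000) within 1 for 100% of peaks. The authors' areas started at 200.0 in each list.

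Overlaps, ranks and Wilson 95% intervals were computed in Python 3.11.15 with pandas 2.3.3 and statsmodels 0.14.6, and the overlap code was tested on simulated data. Genes and promoter windows came from RefSeq GRCh38.p14; the gene table has no strand, so gene ends were used, and windows covered 79.2% of genes. No genome sequence was used, so peaks outside promoters were not searched for motifs. Named per list were the 8 largest private peaks, 8 widest rank gaps (higher rank over 75), 6 genes with most excess private peaks and up to 5 members of each gene list, of which the text gives those with the clearest identity. Members and gene lists were chosen with earlier results of these data known. Alternatives changed the overlap rule, list length, ranking value, assignment distance and chromosomes.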

Additional observations from a re-analysis of the deposited data

How the results depend on the processing

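Over the alternatives run, the 4 changes of order in the main comparison all came from equal list length. Near-equal private counts follow there from the overlap rule, so these 4 orders say nothing about the treatments. The FSK minus CBPi private share was 4.90 points with whole lists, and -1.03 (equal length by area), -0.95 (by area per width), -0.90 (by −log10 p) and -0.50 points (20000 largest). It was 5.61 points with a reciprocal overlap of 50%, 5.74 with no other peak within 1 kb, 2.71 for the larger-area 50% and 4.30 without chromosome 7 at 45 to 55 Mb. Private counts were 3535 in FSK and 3635 in CBPi among the 20000 largest, and 1523 and 767 in the larger-area 50%. The distal private share in the poorest minus the richest gene-density quintile was 30.5 points in FSK, 25.8 with reciprocal overlap, 14.6 in the larger-area 50% and 36 with 1 Mb windows; in CBPi it was -16.3 points, and -2.98 in the larger-area 50%. The share of private peaks in the vehicle list was 61.5% in FSK and 73.3% in CBPi with reciprocal overlap, 55.1 and 69.6% at equal length, and 66.4 and 92.0% in the larger-area 50%. Ranked by area per width, 6212 pairs were over 20 points higher in FSK and 6268 in CBPi. The immune list difference was 5 points without IKZF1 or without the chromosome 7 block. With gene ends of 5 kb, 325 genes had a gene-end peak in FSK only. At equal length TGACGTCA was in 0% of FSK-only windows. RASA3 had 1 more private peak in FSK than in CBPi within 25 kb. The cause of these changes was not tested, beyond fewer peaks being compared. Of the remaining values, for single genes, named peaks and distal rank differences, 63 moved and 237 did not. Beyond the gene lists whose order is described above, the FSK minus CBPi difference changed sign with reciprocal overlap for the cAMP/CREB-induced (1.67 points), aldosterone (7.37), developmental (1.20) and endothelial (2.25) lists, and within 25 kb for the chromaffin list (16.7).

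No paired analysis was possible because each group is 1 list. No replicate was left out for the same reason, and no library depth is known. Absence from a list means only that the caller reported no peak there, and private shares were highest among the smallest peaks. Windows and lists share peaks, so their values are not independent.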

Other observations

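Gene lists of general cell functions had lower private shares in FSK than the 18.7% of all assigned FSK peaks; the intervals of the housekeeping, p53 and cholesterol lists lay below it, and that of the cell cycle list included it. From peaks of the same area decile, density quintile and position class, 18.0% was expected for housekeeping, 13.4% for p53, 19.6% for cholesterol and 17.6% for cell cycle genes. The intervals of the p53 and cell cycle lists included these expected shares. Housekeeping genes had 5 of 66 peaks private in FSK (7.58%) and 16 of 73 in CBPi (21.9%), and the median rank difference of their 45 shared pairs was -6.95 points. The p53 and stress genes had 4 of 55 private in FSK (7.27%) and 12 of 63 in CBPi (19.0%), with 2 shared pairs over 20 points higher in FSK and 11 in CBPi. BBC3, a pro-apoptotic p53 target, had a gene-end peak in FSK only, and HSPA1A, a heat shock protein gene with a near-identical copy, in CBPi only. Cell cycle and E2F genes had 8 of 73 private in FSK and 15 of 81 in CBPi, and all 33 had a gene-end peak in both lists. Cholesterol supply genes had 8 of 84 private in FSK (9.52%) and 13 of 88 in CBPi (14.8%).

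By chromosome, the private share was highest in FSK on chromosome 18 (35.5%) and lowest on chromosome 19 (7.12%). In CBPi it was highest on chromosome 22 (30.4%) and lowest on chromosome 18 (15.8%). The FSK share was the higher on 16 of 23 chromosomes.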
